A study of Mus musculus with 65 samples.

Results

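The H3K27ac libraries of the MEF2D single knockout were compared with their own Controls at the 1419 genomic sites that the deposited count table lists, with 3 MEF2D cKO libraries (cKO, conditional knockout) against 3 MEF2D Control libraries. All 1419 sites were taken, whatever their level or class, and the same sites were read in the MEF2A line and in the MEF2AD line, in which both genes are deleted. Every H3K27ac library came from cerebellum of a female C57BL/6 mouse and used the same antibody (Abcam ab4729). The groups are called MEF2D cKO and MEF2D Control in the labels, and likewise for the other 2 cKO lines. The Cre driver, the deleted exons, the genotype of the Controls and the age at chromatin collection were not given in the labels; an age of postnatal day 22 is stated for the RNA. The titles of the RNA libraries say rotarod, a motor task, while the RNA sheet says baseline, and which state applies was not settled. The labels do not say whether libraries of a group came from separate animals, so p-values measure the spread between these libraries, which may be technical. The study asked how far MEF2A and MEF2D depend on each other in this tissue.

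MEF2A and MEF2D are MADS-box transcription factors that bind the same AT-rich sequence as homodimers or heterodimers, and both are present in cerebellar granule neurons, the most numerous neurons of the mouse brain. MEF2 proteins recruit histone acetyltransferases such as p300 or, when bound by class IIa histone deacetylases, repress their targets, and neuronal activity shifts them between these states. H3K27ac, acetylation of lysine 27 of histone H3, marks active enhancers and promoters. The sites had a median length of 312 bp and ranged from 177 to 881 bp. The class column of the deposited counts calls 198 sites compensatory and 1221 non-compensatory. By overlap with the deposited peak lists, 165 compensatory sites lie under both a MEF2A and a MEF2D peak and 33 under a MEF2A peak only, and all 1221 non-compensatory sites lie under a MEF2D peak only.

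The promoter sequences of 6 genes show what kind of DNA lies under the sites. They were chosen after the values were seen: the first 3 lie at sites whose H3K27ac fell under both scalings used here, the fourth at a site called lower under library totals alone, and the last 2 at sites called higher under site-based scaling alone. Each is the part of the RefSeq promoter window (GRCm38.p6) that overlaps the site, written 5′ to 3′ on the strand of the gene. Capitals mark a match on either strand to the 10-base MEF2 consensus, or, in the Hdac9 window, to the AP-1 motif TGANTCA.
Hdac9 (chr12:34528840-34529139, minus strand): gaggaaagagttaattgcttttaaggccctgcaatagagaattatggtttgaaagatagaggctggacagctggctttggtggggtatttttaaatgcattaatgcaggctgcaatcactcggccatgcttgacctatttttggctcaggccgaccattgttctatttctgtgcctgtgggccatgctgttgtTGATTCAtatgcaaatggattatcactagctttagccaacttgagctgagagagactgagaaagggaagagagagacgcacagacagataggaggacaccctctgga
Perm1 (chr4:156215688-156215976, plus strand): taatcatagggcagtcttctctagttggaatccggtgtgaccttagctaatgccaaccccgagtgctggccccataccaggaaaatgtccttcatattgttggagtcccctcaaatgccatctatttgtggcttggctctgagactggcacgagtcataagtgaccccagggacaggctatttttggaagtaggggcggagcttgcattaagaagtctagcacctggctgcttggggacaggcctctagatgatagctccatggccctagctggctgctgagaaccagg
Gm39671 (chr11:29808691-29808933, plus strand): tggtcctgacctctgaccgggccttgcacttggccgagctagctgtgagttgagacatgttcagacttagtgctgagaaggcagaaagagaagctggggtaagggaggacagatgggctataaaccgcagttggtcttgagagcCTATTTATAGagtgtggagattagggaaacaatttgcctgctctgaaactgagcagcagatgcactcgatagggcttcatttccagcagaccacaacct
Per1 (chr11:69099950-69100201, plus strand): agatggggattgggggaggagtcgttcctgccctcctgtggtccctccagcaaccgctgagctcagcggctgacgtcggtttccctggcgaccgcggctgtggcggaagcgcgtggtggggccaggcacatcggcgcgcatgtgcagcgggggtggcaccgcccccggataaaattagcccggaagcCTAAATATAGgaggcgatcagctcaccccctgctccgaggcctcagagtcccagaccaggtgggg
Hdac5 (chr11:102230123-102230422, minus strand): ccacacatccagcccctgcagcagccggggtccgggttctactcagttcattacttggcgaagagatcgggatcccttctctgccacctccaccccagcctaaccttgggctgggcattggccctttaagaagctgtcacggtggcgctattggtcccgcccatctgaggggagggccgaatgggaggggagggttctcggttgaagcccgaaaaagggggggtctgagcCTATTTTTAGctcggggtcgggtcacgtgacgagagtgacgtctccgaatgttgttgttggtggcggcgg
Ckb (chr12:111672289-111672588, minus strand): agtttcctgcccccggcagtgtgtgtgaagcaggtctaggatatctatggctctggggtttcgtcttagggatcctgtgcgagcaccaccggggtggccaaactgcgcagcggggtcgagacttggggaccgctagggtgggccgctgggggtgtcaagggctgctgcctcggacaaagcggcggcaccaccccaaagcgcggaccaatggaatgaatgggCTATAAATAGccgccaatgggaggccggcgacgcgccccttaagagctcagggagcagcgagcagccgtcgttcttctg
The MEF2 consensus lies at position -49 from the annotated start in Gm39671, at -15 in Per1, at -20 in Hdac5 and at -29 in Ckb. The windows of Hdac9 and Perm1 held no match to these letters. Of 113 promoter windows that overlap a site, 42 (37.2%) held the MEF2 consensus, against 3.19% of all 32851 windows, and 12 (10.6%) held the AP-1 motif, against 7.81% of all. The consensus was present in 3 of 11 windows at sites called lower under site-based scaling, in 10 of 32 at sites called lower under library totals and in 7 of 15 at sites called higher under site-based scaling. It was present in 13 of 24 windows at compensatory sites and in 29 of 89 at non-compensatory sites. These counts describe the windows and were not tested.

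The MEF2D cKO libraries held 20318451, 18063041 and 23424509 reads in all and the MEF2D Controls 15303150, 18221626 and 14590695, so the knockout libraries were the deeper ones on average. The median site held 55, 56 and 70 reads in the knockouts and 58, 72 and 59 in the Controls, against a median of 2 reads in each input. All 13 sites on chromosome Y had 0 reads in the 18 H3K27ac libraries, and 1372 sites had enough reads to be tested. The labels do not tie RNA and H3K27ac libraries to animals. In the 4 RNA libraries per group of the same line, Mef2d was at 363.3, 387.2, 359.5 and 360.2 CPM in MEF2D cKO and at 356.7, 321.1, 310.3 and 305.7 CPM in Control, a log2 difference of 0.19 ± 0.08 (SE, n = 4; limma adjusted p = 0.165), so the total read count of the gene did not show the deletion and could not check the labels.

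MEF2D cKO libraries had a smaller share of their reads in the sites than their Controls. The sites took 0.514, 0.548 and 0.550% of all reads in the MEF2D cKO libraries and 0.648, 0.676 and 0.693% in the Controls. Every knockout library was below every Control. The means were 0.538 ± 0.0204% and 0.672 ± 0.0224% (SD, n = 3), a ratio of 0.799 (exact permutation test, two-sided, p = 0.1, the smallest that 3 against 3 allows). In the MEF2A line the knockouts were also below the Controls without overlap, at 0.638, 0.657 and 0.672% against 0.689, 0.691 and 0.706% (exact permutation test, p = 0.1, n = 3), with a ratio of 0.942. In the MEF2AD line the ratio was 0.737, with means of 0.475 and 0.645%; the differences between these ratios were not tested. Reads outside the sites are not divided further in the table, so where in the genome the remaining share went was not measured. The efficiency of the immunoprecipitation, which also sets this share and the library-total folds below, was not tested.

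The balance among the sites also differed, in measures that no scaling of a library can change. The log2 ratio of reads in compensatory to non-compensatory sites was -2.07, -2.02 and -2.02 in MEF2D cKO and -2.24, -2.25 and -2.24 in Control. Knockouts were above Controls without overlap, by 0.21 (exact permutation test, two-sided, p = 0.1, n = 3). The log2 ratio of reads in the highest tertile of sites (by level) to the lowest tertile, with tertiles set on the Controls of the other lines, was 2.92, 2.85 and 2.95 in MEF2D cKO and 2.64, 2.55 and 2.58 in Control. Again the groups were apart, by 0.32 (exact permutation test, p = 0.1, n = 3). The log2 ratio of reads in sites within 1000 bp of a gene start to the other placed sites was -2.32, -2.30 and -2.28 against -2.44, -2.47 and -2.38, a difference of 0.12 with no overlap (exact permutation test, p = 0.1, n = 3). Reads in the knockout were thus distributed more to compensatory, high and promoter sites than in the Control. These ratios share their libraries and overlap in their sites, so they are not independent. The highest tertile held 94 of 198 compensatory and 379 of 1221 non-compensatory sites. In the MEF2A line the class ratio differed by -0.03, the level ratio by -0.15 and the promoter ratio by -0.05, with exact permutation p of 0.3, 0.2 and 0.2 (n = 3). The MEF2AD line differed by 0.22, 0.49 and 0.23 in the same order.

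**Figure D1:**
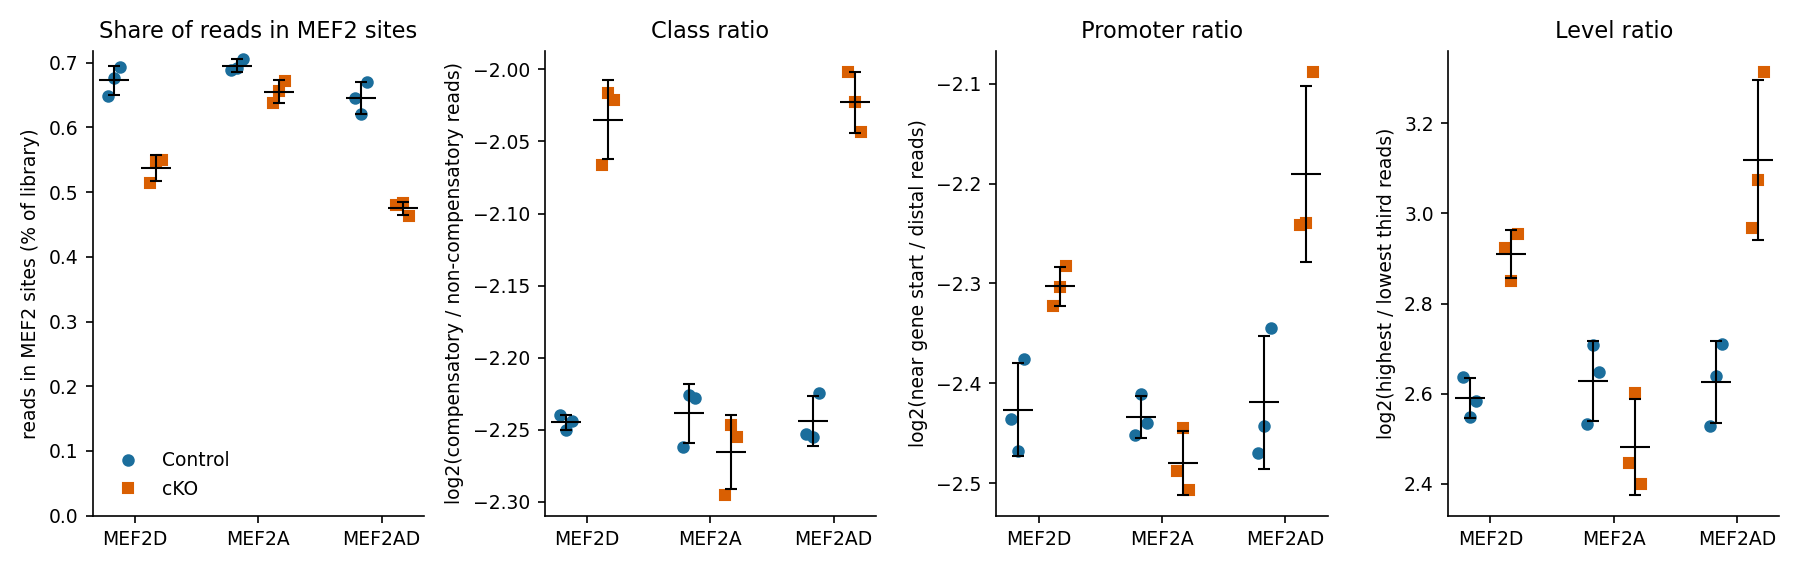
Share of reads in the sites (percent) and log2 ratios of reads between site classes, positions and level tertiles, per H3K27ac library in the MEF2A, MEF2D and MEF2AD lines; points are libraries and bars are mean ± SD of 3. In the MEF2D panels knockouts and Controls are apart in all 4 measures, with shares of 0.514 to 0.550% against 0.648 to 0.693%.

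Because the sites took a smaller share of each knockout library, the count of changed sites depends on what a library is scaled to. Under library-total scaling, where each site is read against all reads of its library, a fall shared by all the sites is kept. Under this scaling 565 of 1372 sites were lower in MEF2D cKO (41.2%) and 8 were higher (0.583%) by edgeR's quasi-likelihood test at a Benjamini-Hochberg adjusted p under 0.05. The median log2 fold was -0.36, 84.3% of tested sites had a negative fold, and the lower and upper quartiles of the folds were -0.78 and -0.09. Under site-based scaling, where TMM sets the typical site to no change, 274 sites were lower (20.0%) and 201 were higher (14.7%), with a median fold of 0.00 and quartiles of -0.42 and 0.27. The first scaling asks whether a site lost H3K27ac against the genome as sequenced, and the second whether it lost more or less than the typical site.

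The calls of both scalings nest. All 274 sites called lower under site-based scaling were also called lower under library totals, and 291 more were called lower under library totals alone. Of the 201 called higher under site-based scaling, 8 were called higher under library totals and 193 were not called there; no site had opposite calls. Falls were larger than rises. The median log2 fold was -0.93 over the 274 lower sites and 0.46 over the 201 higher sites under site-based scaling. In all, 123 sites were called with a fold below -1 and 23 with a fold below -2, and 4 were called with a fold above 1.

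**Figure D2:**
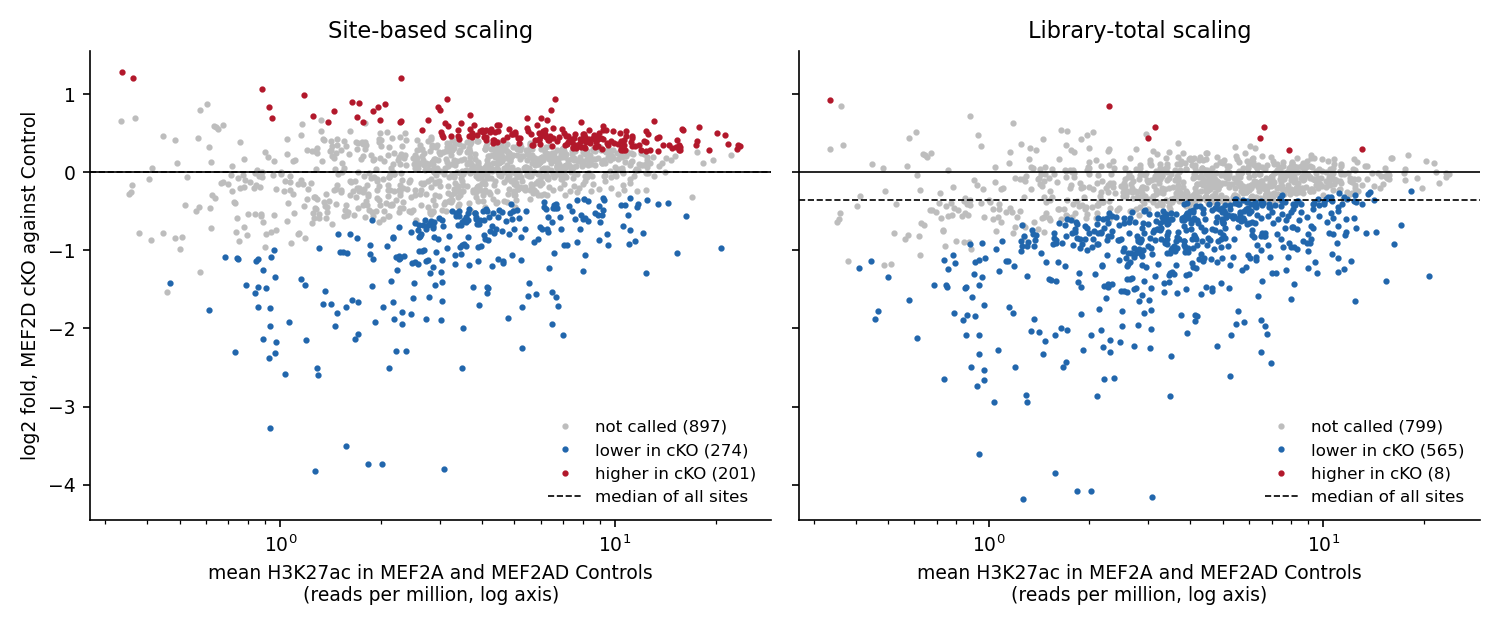
Log2 fold of H3K27ac in MEF2D cKO over Control at each tested site against the site's level (RPM, reads per 1000000 reads of the library, log axis) in the Controls of the MEF2A and MEF2AD lines, under site-based scaling and under library totals. The cloud is centred on 0.00 in the first panel and on -0.36 in the second, and the deepest falls lie at sites of low and middle level.

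At most of the sites that fell most, mean H3K27ac in the knockout was within the range of the inputs. Of the 23 sites called with a log2 fold below -2, 21 had a mean in MEF2D cKO at or below 0.483 RPM, the 95th percentile of the input over the tested sites, and 1 had such a mean in Control. Their median level was 1.56 RPM in Control and 0.159 RPM in MEF2D cKO. The 23 were chosen by the size of their fall. A fall of that size from such a Control level ends near the input, so the count of 21 follows in part from the choice. Among all 274 lower sites 56 were at or below the input percentile in MEF2D cKO and 1 in Control. Over all 1372 tested sites these numbers were 95 and 14. With 1 to 11 reads per knockout library at the sites described next, the size of the fold is imprecise, though the direction rests on Control counts of 13 to 70 reads.

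The deepest called fall lay at a site in Rhot1 (chr11:80238374-80238574), which encodes a GTPase that couples mitochondria to transport motors. It had 0.0492, 0.0554 and 0.128 RPM in the 3 MEF2D cKO libraries and 1.5, 1.32 and 1.92 RPM in the Controls. The groups were far apart, and the log2 fold was -3.83 ± 0.48 (SE, n = 3; edgeR site-based, adjusted p = 5.9e-09). A site in 2810004N23Rik (chr8:124860200-124860484) had 0.0984, 0.332 and 0.171 RPM against 3.01, 3.62 and 4.04 RPM. It combined a deep fall, -3.80 ± 0.33 (SE, n = 3; edgeR adjusted p = 1.9e-13), with a level in the middle tertile of sites. At a site in Tcf12 (chr9:71858021-71858350), a gene for a basic helix-loop-helix factor of neural development, the values were 0.197, 0.111 and 0.0427 RPM against 1.96, 1.81 and 2.33 RPM. The fold there was -3.73 ± 0.43 (SE, n = 3; edgeR adjusted p = 5.3e-10), and Tcf12 was also among the genes whose RNA fell.

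Falls of the same order were found at sites in Zfp800, a zinc finger gene (-3.74), and Smarce1, which encodes a subunit of the BAF chromatin remodelling complex (-3.50). Sites in Unc13c, for a synaptic vesicle priming protein (-2.59), in Mfn2, for a mitochondrial fusion GTPase (-2.51), and in Ap2b1, for a subunit of the AP-2 clathrin adaptor (-2.50), followed. The Ap2b1 site (chr11:83393114-83393475) had 0.492, 0.443 and 0.470 RPM against 3.53, 3.84 and 2.88 RPM, so its knockout libraries were alike and well below each Control. Sites outside genes near Dysf (-2.59, 94096 bp away), Cotl1 (-2.50, 4000 bp), Dync1i1 (-2.31, 10201 bp) and Gnao1 (-2.29, 32120 bp), the last for the G protein alpha subunit abundant in brain, completed the 12. All 12 are non-compensatory, as are 1185 of the 1372 tested sites and 266 of the 274 lower ones. Of the 12, 2 sites, in 2810004N23Rik and Ap2b1, lay in the middle tertile by level and 10 in the lowest. The lowest tertile held 426 of the 1372 tested sites. The 12 were ranked by fold, and sites with few reads scatter more around their fold. All 12 were called lower under both scalings. At 1 of these genes, Tcf12, RNA was called lower; RNA of Rhot1, Zfp800, Smarce1, Unc13c, Mfn2 and Ap2b1 was not called.

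**Figure D3:**
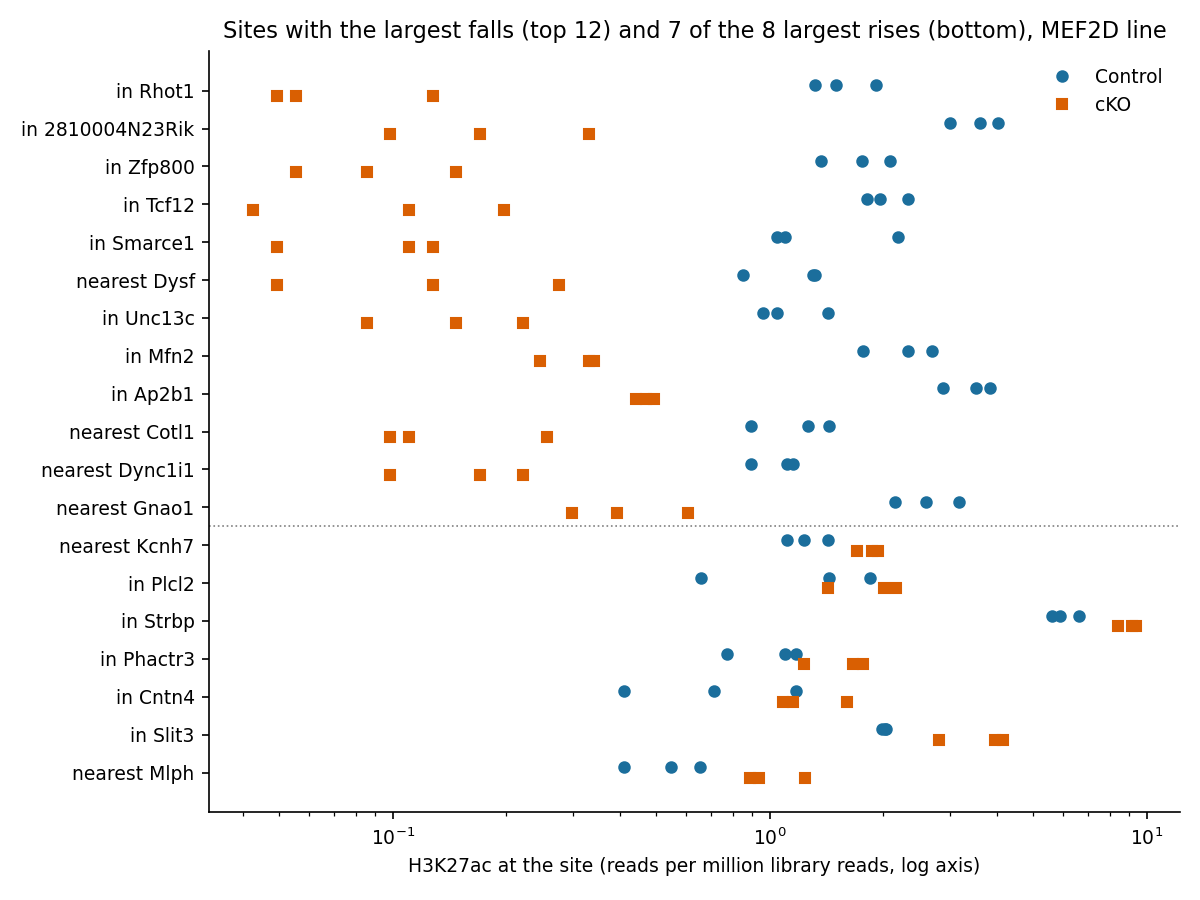
H3K27ac in RPM (log axis) in each MEF2D cKO and MEF2D Control library at the 12 largest falls and at 7 of the 8 largest rises. The falls separate widely, with the Rhot1 site at 0.0492 to 0.128 RPM in MEF2D cKO and 1.32 to 1.92 RPM in Control, and the rises are much smaller.

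The rises were smaller, and few were higher against the whole library. The 8 largest under site-based scaling had log2 folds from 0.89 to 1.28. They include sites in Slit3, Cntn4, Phactr3, Strbp and Plcl2, and sites whose nearest protein-coding genes are Mlph (18167 bp away) and Kcnh7 (268765 bp). At the Slit3 site (chr11:35231841-35232087), in a gene for a secreted guidance ligand, RPM was 2.81, 4.15 and 3.97 in MEF2D cKO and 2.03, 2.03 and 1.99 in Control. All knockouts were higher, with log2 folds of 1.21 ± 0.19 under site-based scaling (SE, n = 3; edgeR adjusted p = 1.6e-06) and 0.85 under library totals (edgeR adjusted p = 0.00035). The Strbp site (chr2:37576721-37577216), in a gene for a double-stranded RNA-binding protein, had 8.42, 9.13 and 9.35 RPM against 6.60, 5.60 and 5.89 RPM. It too was higher without overlap, by 0.94 ± 0.13 (SE, n = 3; edgeR adjusted p = 5.4e-08) and by 0.58 under library totals.

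Of the other 6 sites higher under both scalings, 5 were near Mlph, nearest to Dppa2 (54259 bp away), in Kdm4a, in Gse1 and near Zfp608, with library-total folds from 0.28 to 0.93. Kdm4a encodes a histone demethylase. The call under library totals was kept at the Slit3 and Strbp sites whichever single library was left out and with DESeq2; at the other 6 it was lost in at least 1 of these. Of the 8 largest rises, those in Cntn4, Phactr3 and Plcl2 and near Kcnh7 were not called under library totals. In Cntn4 and Plcl2 the groups overlapped in RPM, with 1.08, 1.61 and 1.15 against 1.18, 0.713 and 0.411 in Cntn4 and 1.43, 2.16 and 2.01 against 1.44, 0.659 and 1.85 in Plcl2. Their site-based calls were lost without Control 3 (Cntn4) or without Control 2 (Plcl2 and Phactr3).

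The counts differed by class. Of 187 tested compensatory sites 8 were lower (4.28%) and 45 higher (24.1%) under site-based scaling, and of 1185 non-compensatory sites 266 were lower (22.4%) and 156 higher (13.2%). Under library totals 35 (18.7%) and 530 (44.7%) were lower, with median log2 folds of -0.14 and -0.41. Within the compensatory class, the 164 tested sites with both peaks had a library-total median of -0.18, with 34 lower, and the 23 with a MEF2A peak alone had a median of 0.00, with 1 lower. Of the 33 sites with no listed MEF2D peak, 10 had too few reads to be tested. How the class was set is not stated in the labels, and the only test across the classes is the class ratio above.

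The counts also differed by level and position. In the highest, middle and lowest tertile by level in the Controls of the other lines, 73 of 473, 107 of 473 and 94 of 426 sites were lower under site-based scaling and 131, 49 and 21 were higher. The library-total medians were -0.21, -0.37 and -0.59 in the same order. Among 394 low non-compensatory sites 94 were lower, and among 32 low compensatory sites 0 were lower and 2 were higher, with 5 lower under library totals. Of 145 sites within 1000 bp of a gene start 13 were lower and 20 higher under site-based scaling, and of 981 tested sites farther away 205 and 145, with library-total medians of -0.20 and -0.40. None of the 28 compensatory promoter sites was lower under site-based scaling and 6 were higher; under library totals 2 were lower. Across sites the fold and the level correlated with r = 0.271 and rho = 0.283, and the fold and site length with r = 0.090, over 1372 sites that share their libraries. Sites with few reads scatter more around their fold, and what this adds to the order of the tertiles was not tested. Sites in protein-coding genes and outside them had like shares of falls, 163 of 837 and 111 of 535.

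**Figure D4:**
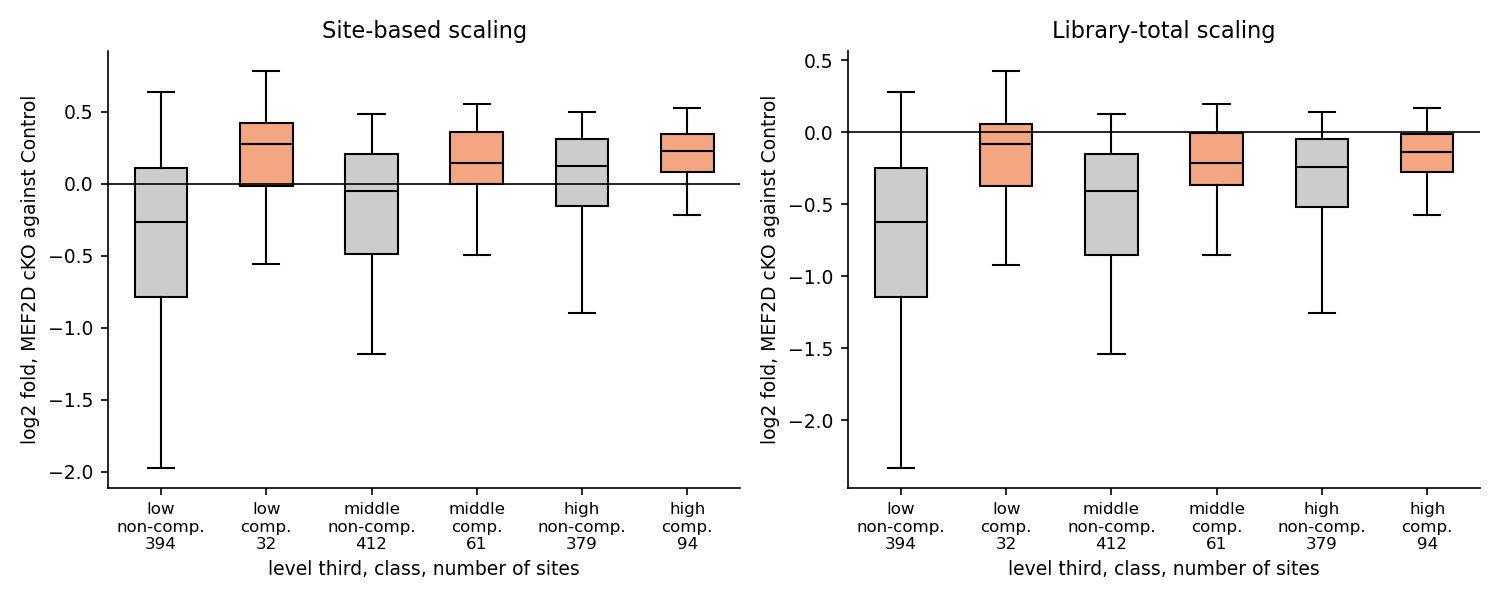
Log2 folds of MEF2D cKO over Control by class and level tertile, under both scalings; boxes show quartiles and median, and whiskers the 5th to 95th percentile of sites. The library-total medians run from -0.62 in low non-compensatory sites to -0.09 in low compensatory sites, and lie at -0.14 and -0.24 for high compensatory and high non-compensatory sites.

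The MEF2 genes themselves carry 3 of the sites, and none of the 3 was called. A compensatory site at the Mef2a promoter (chr7:67372576-67373229) had 15.4, 21.4 and 21.8 RPM in MEF2D cKO and 19.2, 21.2 and 24.3 RPM in Control. The groups overlapped, with a log2 fold of 0.22 ± 0.11 (SE, n = 3; edgeR site-based, adjusted p = 0.11) and -0.14 under library totals. The site in Mef2d (chr3:88150077-88150451) had 6.84, 6.20 and 6.19 RPM against 7.38, 7.35 and 8.22 RPM, lower in each knockout, with folds of 0.11 and -0.25, neither called. The low site in Mef2c (chr13:83603915-83604194) had folds of -0.15 and -0.51. No site was placed at Mef2b.

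Among genes known from other work as MEF2 targets, 9 tested sites lay at 6 of 19 genes: 2 were lower (22.2%) and 1 higher (11.1%) under site-based scaling, and 3 were lower under library totals (33.3%). These shares lie near the 20.0%, 14.7% and 41.2% of all sites. The Hdac9 promoter site (chr12:34528812-34529199), whose sequence is shown above, had 0.984, 1.05 and 1.20 RPM in MEF2D cKO and 2.48, 2.69 and 3.15 RPM in Control. Every knockout was below every Control, with a log2 fold of -0.99 ± 0.24 (SE, n = 3; edgeR adjusted p = 0.0011), and Hdac9 RNA fell by 0.49 (limma adjusted p = 0.0127). HDAC9 is a class IIa histone deacetylase that binds MEF2 proteins. The site in Homer1, which encodes a postsynaptic scaffold, had 4.77, 5.81 and 4.78 RPM against 8.69, 10.6 and 9.18 RPM, a fold of -0.54. At the Hdac5 promoter, for another class IIa deacetylase, RPM was 6.40, 6.86 and 7.30 against 5.29, 5.87 and 8.36; the groups overlapped, the site-based fold of 0.45 was called, and the library-total fold of 0.09 was not.

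Activity-regulated genes, which neurons switch on after depolarization, held 13 tested sites, of which 1 (Homer1) was lower and 2 (Npas4 and Nr4a3, both transcription factor genes) were higher under site-based scaling. These are 7.69% and 15.4% of the 13, beside 20.0% and 14.7% of all sites. Under library totals 3 were lower (23.1%, beside 41.2% of all sites). At Npas4 RPM was 1.62, 3.38 and 4.78 against 2.03, 2.63 and 2.40, so the site-based fold of 0.84 rested on 2 of the 3 knockout libraries and the call was lost without cKO 3. At Nr4a3 the folds were 0.34 under site-based scaling and -0.02 under library totals, and the RPM overlapped. The Per1 promoter site, in a clock gene that activity also induces, had 2.31, 4.65 and 6.28 RPM against 5.82, 5.49 and 7.33 RPM, with the groups overlapping. It was called under library totals (-0.46, edgeR adjusted p = 0.043) and not under site-based scaling (-0.11). For the 105 tested sites at the authors' list of MEF2-bound genes activated by rotarod training, 15 were lower (14.3%) and 14 higher (13.3%) under site-based scaling. Under library totals 33 of the 105 were lower (31.4%, beside 41.2% of all sites). The deepest of these falls were at Dock9 (-1.54), which encodes a guanine nucleotide exchange factor, and Pitpnm2 (-1.22).

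Neuronal gene groups gave mixed counts, to be read beside the 20.0% lower and 14.7% higher of all sites under site-based scaling and the 41.2% lower under library totals. The list of calcium and sodium channel genes, which also holds the calcium pump gene Atp2b2, had 12 tested sites. Of these 5 were lower (41.7%) and 1 higher (8.33%) under site-based scaling, and 6 were lower under library totals (50%). Atp2b2 held 4 of the 12 sites, with 0 lower and 1 higher under site-based scaling, so the shares are not those of channel genes alone. The lower ones were in Cacna1a, Cacnb2, Cacnb4, Ryr3 and Scn2a, which encode calcium channel subunits, a ryanodine receptor and a sodium channel. The Cacnb2 site (chr2:14641084-14641400) had 0.787, 1.16 and 1.11 RPM against 3.14, 3.13 and 3.36 RPM, a fold of -1.29, and the compensatory Scn2a site had 2.17, 2.55 and 2.48 RPM against 4.70, 6.15 and 5.0 RPM, a fold of -0.79. Both were lower without overlap. RNA of Cacnb2, Cacnb4, Ryr3 and Scn2a was not called, with log2 folds of -0.12, -0.04, -0.25 and 0.04. RNA of Atp2b2, with the higher site, was called lower (-0.22, limma adjusted p = 0.015). Potassium channel genes held 7 sites with 1 lower (Kcnj6, -0.82) and 1 higher (Kcnd3, 0.39), GABA receptor genes 2 with none called, and synaptic vesicle genes 10 with 1 lower (Unc13c). Under library totals 3, 0 and 6 of these were lower.

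Markers of cell types gave few sites. Mature granule neuron markers held 14 tested sites, with 2 lower (Reln, -0.68, and Tiam1, -0.82), 2 higher (Car4, 0.48, and Rbfox3, 0.43) and 4 lower under library totals. These are 14.3%, 14.3% and 28.6% of the 14, beside 20.0%, 14.7% and 41.2% of all sites. Markers of granule progenitors had 1 site, in Meis1, a homeobox gene, at 1.08, 1.33 and 1.07 RPM against 4.05, 4.45 and 3.70 RPM, lower by -1.47 on the log2 scale. The Purkinje cell marker Rora had a lower site (-1.10), interneuron markers had 2 sites with none called, and markers of astrocytes, oligodendrocytes, microglia and endothelium had no site. In bulk tissue, fewer cells of a type and less of the mark per cell cannot be told apart. In the RNA of the line, the 8 granule neuron markers summed to 7339 to 7529 CPM in MEF2D cKO and 6695 to 7064 CPM in Control (1 lower and 2 higher by limma). Within that list Gabra6 was at 1278 to 1488 CPM against 719 to 772 CPM, Slc17a7 at 681 to 764 against 815 to 928 CPM, and 5 of the 8 were not called. The 5 interneuron markers summed to 606 to 657 against 668 to 739 CPM (2 lower, 0 higher). Purkinje cell markers (6325 to 7076 against 7069 to 7404 CPM) and those of glia, oligodendrocytes, microglia, endothelium and choroid plexus had none called; choroid plexus markers ranged from 7.86 to 1344 CPM over the libraries. Whether cell composition took part in the H3K27ac values was not tested.

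Few sites were called in the MEF2A single knockout, although its share of reads in the sites was also lower. Under library totals its median log2 fold was -0.08, 64.9% of its folds were negative and 0 sites were called by edgeR, with 138 at an unadjusted p under 0.05. Under site-based scaling 0 sites were lower and 1 was higher (0.0729%) in MEF2A cKO by edgeR, with 110 at an unadjusted p under 0.05, against 607 in MEF2D cKO. The MEF2D effect differed from the MEF2A effect at 255 sites (18.6%) in the test of the difference itself, with 172 more negative in MEF2D cKO (12.5%) and 83 more positive (6.05%). Under library totals 328 sites were more negative in MEF2D cKO (23.9%) and 5 more positive (0.364%), 333 in all (24.3%). The sites lower in MEF2D cKO had median folds of -0.93 in MEF2D, -0.06 in MEF2A and -1.24 in MEF2AD. The first of these is set by the choice of sites. Sites with the strongest evidence of a difference between the lines were in Ubr4, in Arl3, in Pkig, near Gnao1, and 138579 bp from Trib1, the nearest protein-coding gene. At the Ubr4 site (chr4:139432998-139433288), in a ubiquitin ligase gene, RPM was 0.787, 0.830 and 1.11 in MEF2D cKO and 4.97, 6.20 and 5.69 in Control. The fold was -2.25 in MEF2D cKO and -0.14 in MEF2A cKO, a difference of -2.11 ± 0.25 (SE; edgeR adjusted p = 3.3e-08). At the site nearest to Trib1 (chr15:59795678-59796002) the MEF2D fold was -1.89 and the MEF2A fold 0.65, and in Arl3 -2.08 and -0.29.

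In the MEF2AD line 442 sites were lower (32.2%) and 424 higher (30.9%) under site-based scaling, 866 in all (63.1%). Under library totals 753 were lower (54.9%) and 28 higher (2.04%), 781 in all (56.9%). Of the 274 sites lower in MEF2D cKO 260 were also lower in MEF2AD cKO and 0 in MEF2A cKO, and of the 201 higher ones 179 were higher in MEF2AD cKO. Over the 1372 sites the MEF2D folds correlated with the MEF2AD folds at r = 0.875 (rho = 0.833) and with the MEF2A folds at r = 0.116 (rho = 0.079); sites share their libraries and normalization, so these describe the sites and carry no p. The double knockout differed from the MEF2D knockout at 42 sites (3.06%), 39 more negative (2.84%) and 3 more positive (0.219%); under library totals 80 were more negative (5.83%) and none more positive. This count depended on single libraries: it was 13 without MEF2D cKO 2, 17 without MEF2D Control 3, 21 without MEF2AD Control 2 and 23 without MEF2AD Control 1.

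The 5 sites with the smallest p in this test were in Ncald, in Sbk1, near Meltf, in Macrod2 and in Ap3m2. At the Ncald site chr15:37726568-37727098, in a gene for a neuronal calcium sensor, RPM was 7.43, 7.09 and 7.86 in MEF2D cKO and 11.6, 13.5 and 13.2 in Control. The MEF2D fold was -0.41 and the MEF2AD fold -1.50, a difference of -1.09 (edgeR adjusted p = 1.9e-05). In Sbk1 (chr7:126248149-126248499) they were -0.76 and -2.74, near Meltf -0.52 and -2.52, in Macrod2 -1.60 and -2.95, and in Ap3m2 -0.93 and -2.07. All 5 were already lower in MEF2D cKO.

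**Figure D5:**
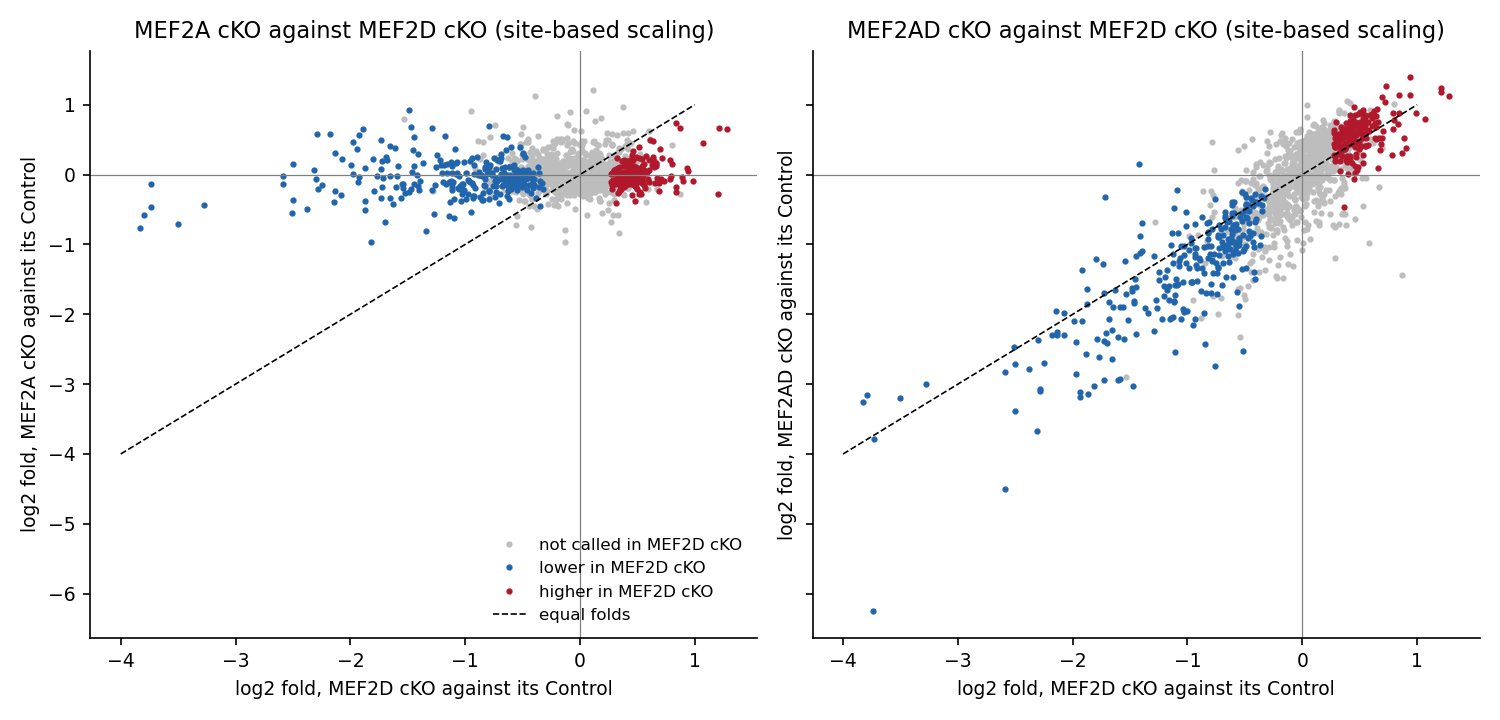
Site-based log2 fold in MEF2D cKO against the fold in MEF2A cKO and in MEF2AD cKO for each tested site. The points spread along the diagonal for MEF2AD (r = 0.875) and lie in a flat cloud for MEF2A (r = 0.116).

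RNA of the same line was read at the genes on or within 5000 bp of the sites. Over all 15469 genes 361 were lower (2.33%) and 401 higher (2.59%), 762 in all (4.93%), in MEF2D cKO by limma at an adjusted p under 0.05. Of 828 measured genes at any of the sites 95 were lower (11.5%) and 22 higher (2.66%). Of 169 genes at sites that were lower under site-based scaling and at none that was higher, 32 were lower in RNA (18.9%) and 2 higher. Of 136 genes at higher sites only, 7 were lower (5.15%) and 9 higher (6.62%), and of 512 genes at sites with no call 55 were lower (10.7%) and 11 higher (2.15%). Under library totals, 60 of 343 genes at lower sites only were lower in RNA (17.5%) and 4 higher. Most genes at a lower site had no RNA call. The RNA counts depended on single libraries: without RNA cKO 4, 19 of the 169 genes (11.2%) were lower, beside 0.944% of all genes, and without RNA Control 1, 20 (11.8%), beside 0.918%.

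Several genes were called in both readouts; of the 12 deepest falls, the one in Tcf12 was among them. Ncald carried 3 sites, all lower under library totals and 2 under site-based scaling, and its RNA fell by 0.97 on the log2 scale (limma adjusted p = 6.1e-06). The second of these sites (chr15:37734272-37734578) had 2.66, 2.44 and 2.31 RPM in MEF2D cKO and 7.97, 7.19 and 7.68 RPM in Control, a fold of -1.26 with wide separation. A site in Ccdc63, a coiled-coil gene, had 4.48, 3.76 and 3.50 RPM against 8.30, 8.01 and 9.80 RPM, a fold of -0.79, beside an RNA fold of -1.94. In Ap3m2, for a subunit of the neuronal AP-3 adaptor, a site had 3.94, 4.43 and 3.67 RPM against 10.1, 9.88 and 9.39 RPM, a fold of -0.93, and RNA fell by 0.45. Lemd1 (site -1.29, RNA -0.47), Pitpnm2 (site -1.22, RNA -0.28), Tiam1 (site -0.82, RNA -0.30) and Tcf12 (site -3.73, RNA -0.24) were also lower in both. Strbp (site 0.94, RNA 0.24) and Slit3 (site 1.21, RNA 0.41) were higher in both. Calls also went opposite ways: Atp2b2 had 1 of 4 sites higher (0.56) and lower RNA (-0.22). Ccdc63 and Ncald belong to 22 genes picked earlier for their RNA change in this line, so their RNA is not independent evidence. At 9 of these 22 genes lay 11 tested sites, with 4 lower (36.4%), 1 higher (Tll1, 9.09%) and 7 lower under library totals (63.6%). The shares of all sites were 20.0%, 14.7% and 41.2%. Ncald alone held 3 of the 11 sites, with 2 of the 4 and 3 of the 7.

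Other sites were called where RNA did not pass. The Perm1 promoter site, shown above, in a gene for a regulator of mitochondrial genes in muscle, had 0.295, 0.498 and 0.171 RPM against 1.44, 1.37 and 1.78 RPM. Its fold of -1.92 ± 0.38 (SE, n = 3; edgeR adjusted p = 7.3e-05) stood beside an RNA fold of -0.41 that was not called. The Gm39671 promoter site, which lies in Eml6, had 1.38, 1.05 and 1.79 RPM against 3.59, 3.79 and 3.08 RPM, a fold of -0.93, and Eml6 RNA had a fold of 0.05. The Ckb promoter site, at a creatine kinase gene, had 11.0, 13.5 and 12.6 RPM against 11.4, 11.4 and 12.3 RPM, with groups that overlapped, a called site-based fold of 0.44, a library-total fold of 0.08 and an RNA fold of -0.11. At Meis1 and Kcnj6, whose sites were lower, RNA folds were 0.02 and 0.23.

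Sites of the same gene did not always share a call. Among 19 genes with at least 3 sites, tested or not, none had all of them called lower under site-based scaling. Enox1 had 3 sites but only 1 with a fold, and that site was lower (-1.66). Of all tested sites 20.0% were lower and 14.7% higher. In 9 of the 19 genes some sites were lower and none higher, in 5 some were higher and none lower, in 2 there were both, and in 3 none was called. Syne1, which encodes a large nuclear envelope protein, had 5 sites, 2 lower and 2 higher, with folds from -0.71 to 0.39 and an RNA fold of 0.01. Under library totals 3 of its 5 sites were lower and none was higher. Inpp4b, for a phosphoinositide phosphatase, had 4 sites, 2 lower and 1 higher. Ncald had folds from -1.26 to -0.37 over its 3 sites, and its RNA was lower. Of 7 measured genes with at least 2 lower sites 3 had lower RNA; under library totals these were 27 and 6 (22.2%), beside 17.5% of the genes at lower sites only.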

How the data were processed

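H3K27ac read counts per site for 18 libraries (6 groups of 3) were deposited by the authors without normalization, with each library's total; titles gave the groups. Bowtie2 2.3.4.2, STAR 2.6 and MACS2, with mm10, are named per the submitters' processing notes, without their roles; read filters and the counter are not given there. RNA was deposited as log2 CPM per library (24 libraries, 6 groups of 4), and whole reads were recovered for 100% of values (tolerance 0.05 reads). The authors' deposited site lists hold log2 fold values, and those were used only as a check: at all 1384 listed sites the authors' deposited value was within 0.001 of the log2 mean of 3 same-number ratios recomputed from the counts. The rotarod sheet, whose log2 fold column in the authors' deposited table was not printed, gave gene names only. Peak lists gave positions only.

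H3K27ac was fitted in all 18 libraries with edgeR 4.0.16 (R 4.3.3; quasi-likelihood, group means, filterByExpr, which left out 47 sites), with TMM over the sites or with library totals, Benjamini-Hochberg threshold 0.05. RNA was fitted with limma 3.58.1 on log2(CPM + 1) in 24 libraries, so a fold is on that scale and understates changes of low genes; recovered MEF2D RNA depths were 10756900 to 14990600 reads. DESeq2 1.42.0 was an alternative. Fold errors are standard errors of the fit; RPM is reads per 1000000 reads of the library total. Single values were compared by exact permutation (scipy 1.17.1). On simulated counts for the MEF2D comparison, edgeR recovered 49, 45 and 24 of 50 falls each of -1.5, -1 and -0.5 and 32 of 50 rises of 0.5, with 5 false calls among 1172 unchanged sites. The simulation gave every site the same relative spread, changed MEF2D cKO alone and used TMM. In the data more sites were called and the MEF2AD line also changed. The simulated counts are therefore not the power or false-call rate of the real comparison.

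Sites were tied to a gene by overlap or within 5000 bp, otherwise to the nearest one, on RefSeq GRCm38.p6 coordinates; exon structure was not used here. Gene starts were taken from an incomplete promoter table, so 268 sites were not placed as promoter or distal. Named sites were the 12 largest falls and 8 largest rises among called sites with a mean of at least 10 reads and no overlap between groups in reads scaled to all site reads; every site at a Mef2 gene; up to 4 called sites per gene list; up to 6 called in both H3K27ac and RNA; and up to 5 per test between lines. Sites called higher under both scalings, those at the printed promoters, and Syne1 and Inpp4b were named after their values were seen. No genome was given, so sequences come from promoter windows and not from the site centres that the design called for. Results for some genes are not reported here. The members, the gene lists and the named-site rule were chosen with earlier results of these data known.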

Additional observations from a re-analysis of the deposited data

Results flagged for a closer look

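The MEF2D effect on H3K27ac differed from the MEF2A effect at 255 of 1372 sites in edgeR's test of the difference at an adjusted p under 0.05. The MEF2AD effect differed from the MEF2D effect at 42 sites in the same kind of test. Both are differences between lines that share no library.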

How the results depend on the processing

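Leaving out each single library gave 355 to 434 calls under site-based scaling, 467 to 535 under library totals, 184 to 249 for MEF2D against MEF2A, 13 to 53 for MEF2AD against MEF2D and 62 to 108 for RNA at the sites (117 with all libraries). It gave differences of -0.147 to -0.123 percentage points for the share of reads, 0.20 to 0.23 for the class ratio, 0.10 to 0.15 for the promoter ratio and 0.30 to 0.35 for the level ratio. MEF2AD against MEF2D gave 80 calls under library totals and 26 with DESeq2. Medians over sites gave 0.25 for the class ratio and 0.17 for the promoter ratio, a distance of 5000 bp gave 0.085 for the promoter ratio, and splitting the sites at the median level gave 0.22 for the level ratio. RNA gave 184 calls in the 8 libraries of the line alone. The deviations of same-numbered MEF2D libraries correlated at 0.107, 0.011 and 0.023 in H3K27ac and at 0.065, 0.315, 0.202 and 0.233 in RNA. Differently numbered MEF2D libraries gave -0.092 to 0.074 and -0.440 to 0.217. In H3K27ac the same-numbered values were 0.165, 0.114 and 0.096 in the MEF2A line and 0.138, 0.0045 and 0.081 in the MEF2AD line. In RNA they were 0.404, 0.503, 0.240 and 0.197 (MEF2A) and -0.198, 0.253, 0.126 and 0.227 (MEF2AD). Whether equal numbers mark pairs was not settled, and the main fits did not take the numbers as pairs. With them as a replicate block there were 505 and 601 H3K27ac calls under site-based scaling and library totals, 292 and 61 between lines and 208 in RNA (54 of the 169 genes at lower sites lower, 32.0%, beside 4.42% of all genes), and an exact permutation p of 0.25, the smallest 3 pairs allow, for the 4 library values. The split of site-based calls was 256 lower and 273 higher with TMM over non-compensatory sites, and 232 and 145 with DESeq2. The Nr4a3 site reversed to -0.023 under library totals. The causes were not tested. With 3 libraries a group, smaller changes, above all at sites with few reads, were not detectable at this depth.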
